A study of Homo sapiens with 9 samples.

Results

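The genes described here are tenascin C (TNC) and 9 other secreted proteins of the pericellular matrix: THBS1, THBS2, SPARC, POSTN, TGFBI, FBN1, FBN2, LOX and LOXL2. They were chosen by gene name from the deposited gene table, from a list drawn up with the changes in sh1 and sh3 against shNC already known, so those changes, and the difference between them, are given as a description and carry no test. All 10 were among the 36785 genes of the table and all 10 passed the filter on low counts that left 21296 genes. The samples were SKOV3 cells, an established human ovarian cancer line, and all 9 libraries came from cells transduced with lentivirus. The labels gave 3 libraries to each of 3 groups: shNC, with the genotype NC and used as the control, sh1 with the genotype STXBP6 knockdown_1, and sh3 with the genotype STXBP6 knockdown_3. The labels name neither a promoter for the hairpins nor separate cultures, so the spread behind each p-value, that between libraries, may be technical. STXBP6 encodes amisyn, a binding partner of syntaxins in regulated exocytosis.

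Matricellular proteins are secreted into the extracellular matrix but mainly modulate contacts between cells and matrix rather than bear load. Tenascin C, the thrombospondins, SPARC, periostin and TGFBI act through integrins and other surface receptors, and several of them bind growth factors or collagen. Fibrillins, encoded by FBN1 and FBN2, assemble into microfibrils that hold latent TGF-beta, and the lysyl oxidases LOX and LOXL2 crosslink collagen and elastin. In ovarian cancer such proteins are best known from the tumour stroma, and cancer cells can make them as well.

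The libraries held 57654447 to 69264400 counts. Counts of STXBP6 were 0 to 15 in the shNC libraries, 4 to 26 in sh1 and 18 to 31 in sh3, at most 0.0567 FPKM. They were not lower in either hairpin group, and every sh3 library held more than any shNC library. With so few counts a knockdown could not be checked, and sh1 and sh3 stand for the libraries labelled so. The shNC replicate 3 library stood further from the other 2 shNC libraries (chi-square per degree of freedom 16.9 and 18.9) than any other replicate pair was apart (8.90 to 11.1), and the changes without it are given after the member genes. Of 10 markers of ovarian carcinoma epithelium, 8 had a mean of at least 1 FPKM, among them ERBB2, KRT8 and PAX8. CDH1 and MUC16 were under that level. The leukocyte marker PTPRC had no count in the 6 sh1 and sh3 libraries and at most 4 in an shNC library. The leukocyte list still summed to 13.8 to 15.0 FPKM in shNC, 10.5 to 11.3 in sh1 and 17.6 to 18.7 in sh3, nearly all CD68. Endothelial markers summed to 24.6 to 26.3, 4.88 to 5.57 and 20.8 to 22.8 FPKM, nearly all PLVAP. Of 13 fibroblast and pericyte markers 5 had a mean of at least 1 FPKM, among them MFAP5, LUM and COL1A1, while PDGFRA, PDGFRB and DCN reached at most 0.268, 0.125 and 0.423 FPKM in any library.

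THBS1 and SPARC were the most abundant of the genes, and TNC was among the least. On the FPKM scale, which takes gene length into account and so allows genes to be compared, the shNC libraries held 67.4 ± 11.9 FPKM of THBS1 and 65.1 ± 7.13 of SPARC, followed by LOXL2 at 46.3 ± 1.40, FBN1 at 24.9 ± 1.56 and TGFBI at 22.4 ± 1.74 (SD, n = 3 each, as for all levels below). LOX at 6.66 ± 0.184 FPKM and FBN2 at 6.04 ± 0.502 formed a middle tier, and TNC at 1.05 ± 0.0405, POSTN at 0.443 ± 0.10 and THBS2 at 0.187 ± 0.0205 were the lowest. The shNC values of THBS1 and SPARC overlapped, as did those of FBN1 and TGFBI and those of LOX and FBN2, so the order within these 3 pairs is not resolved. By mean FPKM THBS1 ranked 421 among all genes of the table in shNC, 86 in sh1 and 327 in sh3, and TNC ranked 12489, 5222 and 8868. Together the 10 genes took 0.212% to 0.220% of the counts in shNC libraries, 0.427% to 0.441% in sh1 and 0.244% to 0.253% in sh3. THBS1 alone made up 28.3% to 37.1% of their summed CPM in shNC, 52.0% to 52.3% in sh1 and 33.1% to 33.6% in sh3.

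**Figure D1:**
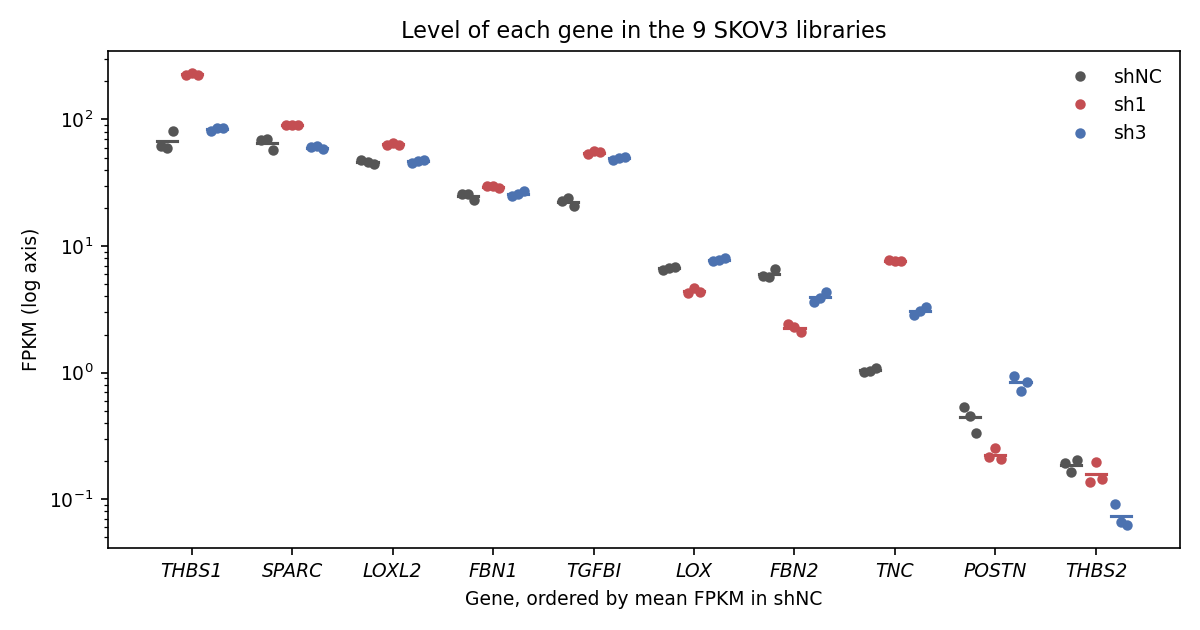
FPKM (log axis) of the 10 genes in each of the 9 libraries, ordered by their mean in shNC; points are libraries, short bars the means of 3 libraries, and colours the groups shNC, sh1 and sh3. TNC sits near 1.05 FPKM in shNC, 7.68 in sh1 and 3.10 in sh3, and the spread within a group is widest for POSTN, THBS2 and the shNC libraries of THBS1.

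In sh1 libraries 9 of the 10 genes were called against shNC (edgeR, adjusted p under 0.05, where 38.7% of all tested genes were called). Of these, 6 were higher, against 19.9% of all tested genes, and 3 were lower, against 18.8%. The library values of 9 genes did not overlap between sh1 and shNC, which 49.9% of all tested genes also showed. In sh3 libraries 7 of 10 were called (26.9% of all tested genes), 5 higher (14.4%) and 2 lower (12.4%), and 7 did not overlap (40.5%). The median log2 change of the 10 genes was 0.38 in sh1 and 0.14 in sh3, where the median over all tested genes was -0.02 and -0.01. The median absolute log2 change was 0.74 and 0.47, where that over all tested genes was 0.30 and 0.22. Since these contrasts were known when the list was drawn up, nothing is read from the counts. Both contrasts share the 3 shNC libraries.

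TNC (ENSG00000041982, GRCh38 chromosome 9, 115019575 to 115118257, minus strand) encodes the hexameric glycoprotein tenascin C, scarce in most adult tissue and abundant in wounds and tumours. Its level was 10.6, 10.8 and 11.5 CPM in the shNC libraries (replicates 1 to 3, as in all such series of values), 81.7, 81.2 and 82.5 in sh1 and 30.2, 32.2 and 34.4 in sh3. The 3 groups did not overlap, with sh1 highest and shNC lowest. The log2 change was 2.90 ± 0.057 (SE) in sh1 and 1.56 ± 0.056 in sh3, or 7.48-fold and 2.95-fold. Behind these values stood 670 to 722 counts per shNC library and 4703 to 5628 per sh1 library. Only DELEC1, on the other strand, overlapped TNC among the table's genes, and it held 0.0340% as many counts.

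THBS1 (ENSG00000137801, chromosome 15, 39581079 to 39599466, plus strand) encodes thrombospondin-1, which activates latent TGF-beta and inhibits blood vessel growth. The shNC libraries held 603, 592 and 805 CPM, those of sh1 2237, 2336 and 2296, and those of sh3 814, 853 and 840. All sh1 values stood far above the rest, while sh3 lay just above the highest shNC library, replicate 3. The log2 change was 1.78 ± 0.093 (SE) in sh1 and 0.33 ± 0.090 in sh3. The sh3 call was lost without shNC replicate 1 or 2 or without sh3 replicate 2 or 3, at log2 changes of 0.26, 0.25, 0.31 and 0.33.

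TGFBI (ENSG00000120708, chromosome 5, 136028988 to 136063818, plus strand) encodes a TGF-beta-induced secreted protein that binds collagens and integrins. It stood at 188, 200.5 and 172 CPM in shNC, at 452, 476 and 471 in sh1 and at 405, 413 and 416 in sh3. Both hairpin groups lay well above shNC and close to each other. Its log2 changes were 1.32 ± 0.047 (SE) in sh1 and 1.14 ± 0.047 in sh3, or 2.49-fold and 2.2-fold.

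The sequences directly upstream of the transcription start are shown for these 3 genes, whose levels were furthest above shNC in sh1, and for LOX and POSTN, which were lower in sh1 and higher in sh3. They were read from the RefSeq table of GRCh38.p14, in which 9 of the 10 genes had an entry and LOXL2 did not. Each run holds the 250 bases before the first RefSeq start listed, 5′ to 3′ on the gene's strand, and capitals mark matches on either strand to one of 6 motifs. The windows are chr9:115118158-115118407 on the minus strand, chr15:39580829-39581078 and chr5:136028738-136028987 on the plus strand, and chr5:122078260-122078509 and chr13:37598769-37599018 on the minus strand.
TNC: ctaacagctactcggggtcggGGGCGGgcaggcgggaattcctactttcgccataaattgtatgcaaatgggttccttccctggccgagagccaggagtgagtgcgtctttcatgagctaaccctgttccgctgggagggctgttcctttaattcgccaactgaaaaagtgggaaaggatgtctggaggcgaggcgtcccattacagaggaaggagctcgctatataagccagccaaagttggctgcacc
THBS1: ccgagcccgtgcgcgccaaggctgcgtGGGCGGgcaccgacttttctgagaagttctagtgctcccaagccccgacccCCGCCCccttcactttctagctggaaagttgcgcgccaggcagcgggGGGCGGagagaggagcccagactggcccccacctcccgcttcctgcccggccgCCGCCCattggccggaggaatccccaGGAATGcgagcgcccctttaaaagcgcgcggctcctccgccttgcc
TGFBI: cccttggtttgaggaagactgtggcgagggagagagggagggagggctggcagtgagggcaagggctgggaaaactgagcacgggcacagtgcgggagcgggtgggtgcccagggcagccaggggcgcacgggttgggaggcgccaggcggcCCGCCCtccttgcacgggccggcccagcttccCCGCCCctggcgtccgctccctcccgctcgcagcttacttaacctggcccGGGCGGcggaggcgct
LOX: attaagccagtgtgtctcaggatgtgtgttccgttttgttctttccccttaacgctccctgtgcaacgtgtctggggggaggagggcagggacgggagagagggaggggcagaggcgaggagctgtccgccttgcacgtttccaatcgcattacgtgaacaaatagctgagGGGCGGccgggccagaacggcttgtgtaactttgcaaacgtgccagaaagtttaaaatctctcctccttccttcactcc
POSTN: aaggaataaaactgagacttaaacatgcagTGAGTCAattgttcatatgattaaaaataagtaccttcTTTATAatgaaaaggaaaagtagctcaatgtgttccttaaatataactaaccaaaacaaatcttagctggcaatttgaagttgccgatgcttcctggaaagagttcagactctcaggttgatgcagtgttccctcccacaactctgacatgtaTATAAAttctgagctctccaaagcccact

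The motifs searched were the TATA box (TATAAA), the GC box (GGGCGG), the AP-1 site (TGANTCA), the TEAD site (GGAATG), the CArG box bound by SRF and the kappaB site. Of 35114 RefSeq promoters of the same length, 10.7% held the first, 42.6% the second, 6.57% the third, 11.9% the fourth, 1.16% a CArG box and 9.96% a kappaB site. TNC held 1 GC box, beginning 229 bases before the start, and LOX held 1, at 79 bases. Only the exact letters TATAAA counted as a TATA box, so the similar tatataag 29 bases before the TNC start is not marked. TGFBI held 3 GC boxes. THBS1 held 4 GC boxes and a TEAD match 46 bases before the start. POSTN held an AP-1 match at 220 bases and TATA boxes at 182 and 29 bases. Among the promoters not printed, TEAD matches were also in those of SPARC, THBS2 and FBN1. That of THBS2 held a TATA box at 29 bases as well, and that of FBN2 held 3 GC boxes. The RefSeq start of FBN2 lies 120940 bases inside the gene as the table bounds it. No match overlapped another, and a match is only a description of the letters. The RefSeq start of TNC lies 100 bases inside the gene as the table bounds it, that of LOX 154 bases and that of POSTN 76 bases, and the starts of THBS1 and TGFBI coincide with the table's.

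SPARC (ENSG00000113140, chromosome 5, 151661096 to 151686975, minus strand), a collagen-binding glycoprotein also called osteonectin, was abundant in all groups. The shNC libraries held 342, 351 and 286 CPM, the sh1 libraries 460, 463 and 469 and the sh3 libraries 305, 307 and 290. Every sh1 value exceeded every other, and sh3 overlapped shNC only through shNC replicate 3. SPARC had log2 changes of 0.51 ± 0.061 (SE) and -0.12 ± 0.061, and the latter was not called. Without shNC replicate 3 it was -0.20 and called.

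The remaining adhesion modulators had few counts. POSTN (ENSG00000133110, chromosome 13, 37562585 to 37598844, minus strand) encodes periostin, an integrin ligand that also binds collagen. It held 215, 181 and 119 counts in shNC, 79, 92 and 90 in sh1 and 386, 258 and 307 in sh3, or 3.19, 2.70 and 2.03 CPM, 1.30, 1.59 and 1.32, and 5.65, 4.29 and 5.02. The sh1 libraries lay below and the sh3 libraries above all shNC libraries. Periostin mRNA thus had log2 changes of -0.92 ± 0.20 (SE) in sh1 and 0.91 ± 0.19 in sh3.

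THBS2 (ENSG00000186340, chromosome 6, 169215780 to 169254044, minus strand), the thrombospondin closest to THBS1, held 102, 87 and 94 counts in shNC, 67, 92 and 80 in sh1 and 51, 33 and 30 in sh3. The sh3 libraries were the lowest, and sh1 overlapped shNC. The log2 changes were -0.19 ± 0.24 (SE) in sh1, not called, and -1.30 ± 0.25 in sh3. Its antisense partner THBS2-AS1 overlaps 29994 bases of the gene and held mean counts of 217 in shNC, 101 in sh1 and 278 in sh3. No source used here states the strand setting of the counts, so the THBS2 values are uncertain.

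Of the fibrillins, FBN2 differed more between groups than FBN1. FBN2 (ENSG00000138829, chromosome 5, 128258037 to 128659185, minus strand) had 82.3, 81.6 and 94.8 CPM in shNC, 35.4, 33.4 and 30.6 in sh1 and 51.8, 56.0 and 61.1 in sh3. The groups did not overlap, with shNC highest and sh1 lowest. The log2 changes were -1.38 ± 0.078 (SE) and -0.62 ± 0.076, or 2.61-fold and 1.53-fold lower. FBN1 (ENSG00000166147, chromosome 15, 48408313 to 48645721, minus strand) had 516, 512 and 463 CPM in shNC, 600.2, 613 and 591 in sh1 and 498, 518 and 540 in sh3. The sh1 libraries lay above the others, and sh3 overlapped shNC, at log2 changes of 0.27 ± 0.043 and 0.06 ± 0.043, of which the second was not called. In FPKM the FBN1 level was 24.9 in shNC and 29.4 in sh1, and FBN2 went from 6.04 to 2.27.

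The lysyl oxidases also differed from each other. LOX (ENSG00000113083, chromosome 5, 122063195 to 122078413, minus strand) had 38.9, 40.7 and 41.2 CPM in shNC, 26.2, 29.1 and 26.9 in sh1 and 46.2, 46.8 and 48.1 in sh3. The 3 groups did not overlap, with sh1 lowest and sh3 highest. The log2 changes were -0.55 ± 0.050 (SE) in sh1 and 0.22 ± 0.050 in sh3. The gene SRFBP1 overlaps LOX on the other strand and held 34.9% as many counts over all libraries, at means of 835, 857 and 843 in shNC, sh1 and sh3.

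LOXL2 (ENSG00000134013, chromosome 8, 23296897 to 23425291, minus strand), which crosslinks type IV collagen of basement membranes, had 307, 300.1 and 291 CPM in shNC, 409, 429 and 422 in sh1 and 293, 306 and 305 in sh3. The sh1 libraries stood above the rest, and sh3 could not be told from shNC. The log2 changes were 0.49 ± 0.031 (SE) in sh1 and 0.01 ± 0.031 in sh3, the latter not called and turned to -0.0167 when library totals replaced TMM scaling. ENTPD4 overlaps LOXL2 on the same strand with 32.0% as many counts, and reads in the shared part may be assigned to either.

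Every change against shNC rests in part on shNC replicate 3. Without that library the log2 changes in sh1 and sh3 were 2.94 and 1.60 for TNC, 1.94 and 0.48 for THBS1, and 1.26 and 1.08 for TGFBI. For SPARC they were 0.42 and -0.20, for POSTN -1.07 and 0.76, and for THBS2 -0.13 and -1.23. For FBN1 they were 0.23 and 0.012, for FBN2 -1.31 and -0.54, for LOX -0.54 and 0.24, and for LOXL2 0.47 and -0.011. The sign changed only for LOXL2 in sh3, where no call stood, and the call only for SPARC in sh3.

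**Figure D2:**
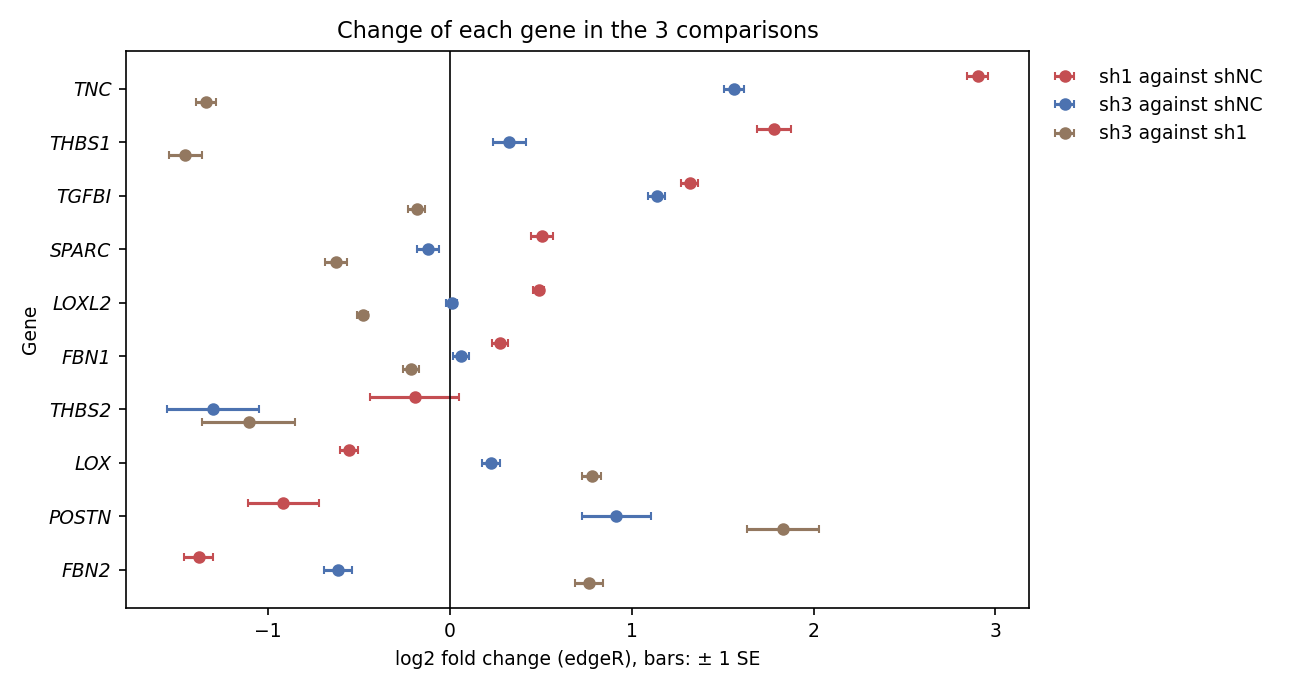
Log2 fold change (x axis, edgeR, bars ± 1 SE) of each gene (y axis, ordered by the change in sh1) for sh1 against shNC, sh3 against shNC and sh3 against sh1, 3 libraries per group. TNC leads at 2.90 in sh1 and 1.56 in sh3, LOX and POSTN lie on opposite sides of 0 in the 2 comparisons with shNC, and the points of sh3 against sh1 are all away from 0.

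Set directly against each other, the sh3 libraries were lower than the sh1 libraries in 7 of the genes and higher in 3. All 10 genes were called (edgeR, 25.9% of all tested genes), 3 higher in sh3 (12.9% of all tested genes) and 7 lower (13.0%), and none of the 10 overlapped between the hairpins (41.8% of all tested genes did not). For each gene this value is the sh3 change minus the sh1 change, both known when the list was drawn up, so it too is a description and nothing is read from the counts. THBS1 was 2.74-fold lower in sh3 (log2 change -1.45 ± 0.092, SE) and TNC 2.53-fold lower (-1.34 ± 0.053). Also lower were THBS2 at -1.11 ± 0.25, SPARC at -0.63 ± 0.061, LOXL2 at -0.48 ± 0.031, FBN1 at -0.21 ± 0.043 and TGFBI at -0.18 ± 0.046. POSTN was 3.56-fold higher in sh3 (1.83 ± 0.20), LOX 1.72-fold higher (0.78 ± 0.050) and FBN2 1.70-fold higher (0.77 ± 0.078). With limma on FPKM in place of counts TGFBI and THBS2 were not called.

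The genes whose profile over the 9 libraries was nearest to that of TNC were sought among 11618 genes of at least 1 FPKM in some group. Likeness was the root mean square difference, over the 9 libraries, between a gene's log2 CPM minus its own shNC mean and the same for TNC. Among the nearest were the actin-binding gene TAGLN at 0.32 (log2 changes of 2.98 in sh1 and 1.04 in sh3), the chorionic gonadotropin gene CGB8 at 0.41 (2.53 and 2.09), the plastin gene LCP1 at 0.50 (3.50 and 1.87) and GLIPR1 at 0.56 (2.23 and 0.87). CGB8 has near-identical copies, so its counts are uncertain. For THBS1 the nearest genes were the protease ADAMTS1 at 0.11 (1.59 and 0.34), the ERBB ligand NRG1 at 0.12 (1.61 and 0.34) and the matricellular CCN1 at 0.15 (1.96 and 0.50). These 9 libraries fall into 3 groups, so the measure rests mostly on the group means.

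**Figure D3:**
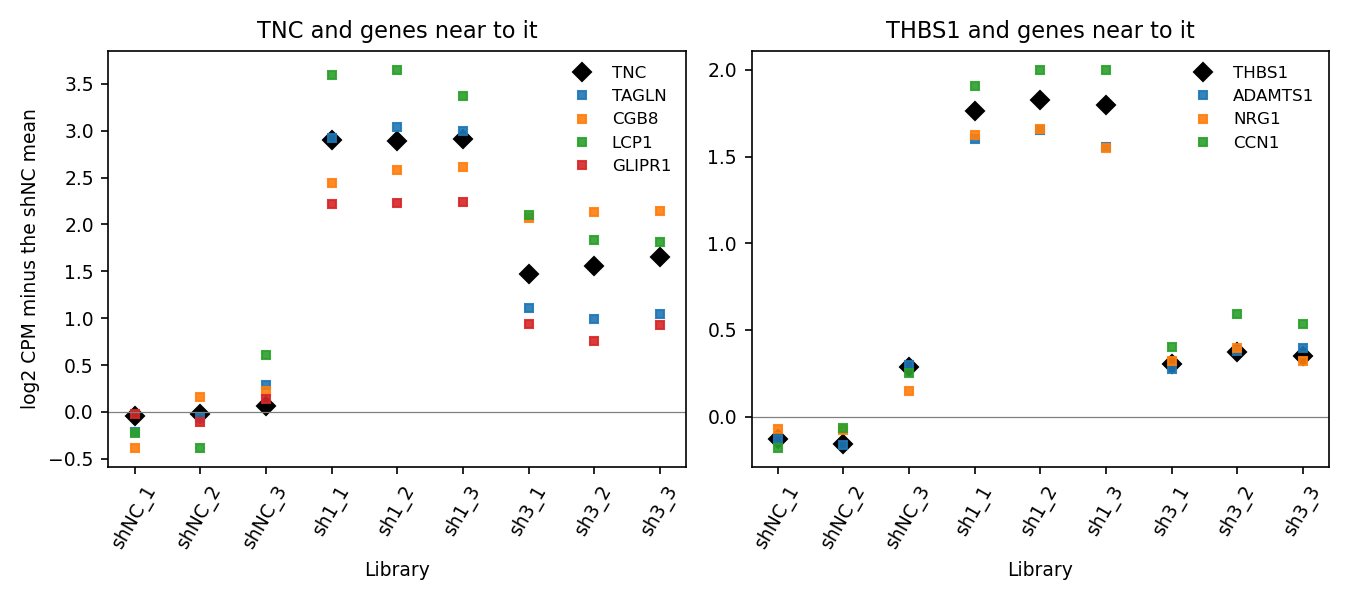
Log2 CPM minus the gene's own shNC mean (y axis) in each of the 9 libraries (x axis) for TNC (left) and THBS1 (right), as black diamonds, and for genes near to each, as coloured squares. TNC and the neighbours shown are highest in the sh1 libraries and intermediate in sh3. THBS1, ADAMTS1, NRG1 and CCN1 are all higher in shNC replicate 3 than in the other 2 shNC libraries. The neighbours were chosen by likeness over these same 9 libraries, so the shared patterns follow from the choice.

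The other genes of the same system were described from 5 lists, drawn up with earlier results of these data known, by the number called (edgeR, adjusted p under 0.05) and the median log2 change. In the list of other matricellular proteins, 14 of 19 genes were tested, and 4 were higher and 7 lower in sh1 (median -0.61), and 2 higher and 6 lower in sh3 (median -0.37). Over all tested genes 19.9% were higher and 18.8% lower in sh1, with a median of -0.02, and 14.4% and 12.4% in sh3, with a median of -0.01. Its 3 most abundant genes lay on the higher side in sh1. The follistatin-like FSTL1 had 85.0 FPKM in shNC, 110 in sh1 and 87.5 in sh3, CCN1, an integrin ligand, had 22.4, 85.2 and 31.6, and CCN2, the connective tissue growth factor, had 34.5, 74.9 and 45.2. Their log2 changes were 0.41 ± 0.025, 1.96 ± 0.091 and 1.15 ± 0.14 (SE) in sh1, all called, and 0.04 ± 0.025, 0.50 ± 0.089 and 0.39 ± 0.14 in sh3, of which CCN1 alone was called.

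Among the receptors of matricellular proteins, 20 of 23 were tested, with 8 higher and 6 lower in sh1 (median 0.04) and 6 higher and 4 lower in sh3 (median 0.05). Over all tested genes 38.7% were called in sh1 and 26.9% in sh3. The integrin subunit ITGB1 had 115 FPKM in shNC, 157 in sh1 and 129 in sh3, and ITGA3 had 245, 180 and 220. Their log2 changes were 0.48 ± 0.023 (SE) and -0.41 ± 0.026 in sh1 and 0.17 ± 0.022 and -0.16 ± 0.026 in sh3, all called. CALR, which encodes calreticulin and binds thrombospondin-1 at the cell surface, changed by 0.13 ± 0.026 in sh1 and had a value of 0.06 ± 0.026 in sh3, not called.

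The elastic fibre and microfibril proteins, to which the fibrillins belong, had 17 of 20 genes tested, with 4 higher and 2 lower in sh1 (median 0.02) and 6 higher and 2 lower in sh3 (median -0.06), beside the same 38.7% and 26.9% of all tested genes. Fibronectin, FN1, on which fibrillin is assembled, was at 50.6 FPKM in shNC, 161 in sh1 and 110 in sh3, with log2 changes of 1.71 ± 0.062 (SE) and 1.12 ± 0.062. The latent TGF-beta binding protein LTBP1 changed by 0.77 ± 0.066 and 0.69 ± 0.066, and the microfibril-associated MFAP5 by -0.78 ± 0.057 and -0.37 ± 0.057, all called.

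The collagen crosslinking and processing enzymes, the class of LOX and LOXL2, were all tested, 18 of 18. Of these 7 were higher and 2 lower in sh1 (median 0.04) and 7 higher and 5 lower in sh3 (median -0.0028), where 38.7% and 26.9% of all tested genes were called. The prolyl hydroxylase subunit P4HB changed by 0.19 ± 0.023 (SE) in sh1 and -0.09 ± 0.023 in sh3. The lysyl hydroxylase PLOD1 (0.02 ± 0.031 and 0.09 ± 0.031) and the proprotein convertase FURIN (-0.03 ± 0.034 and 0.05 ± 0.034) were not called. The other lysyl oxidases, chosen after their values were seen, were LOXL1 at -0.12 in sh1 and -0.60 in sh3, LOXL3 at -1.03 and -0.15 and LOXL4 at -0.25 and -1.84. Only the sh3 values of LOXL1 and LOXL4 were called among these.

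The list of TGF-beta ligands, receptors and responsive genes, 18 of 18 tested, had 8 higher and 3 lower in sh1 (median 0.23) and 8 higher and 3 lower in sh3 (median 0.19). The shares of all tested genes were 19.9% higher and 18.8% lower in sh1 and 14.4% and 12.4% in sh3. Among its most abundant genes, PMEPA1, a feedback inhibitor of the pathway, had 41.6 FPKM in shNC, 69.5 in sh1 and 75.2 in sh3, and the ligand TGFB1 had 29.8, 34.4 and 41.4. Their log2 changes were 0.77 ± 0.051 (SE) and 0.24 ± 0.033 in sh1 and 0.85 ± 0.051 and 0.48 ± 0.033 in sh3, all called. Between sh3 and sh1 themselves, the calls numbered 6 higher and 5 lower among the other matricellular proteins, 8 and 5 among the receptors, 3 and 3 among the microfibril proteins, 3 and 6 among the crosslinking enzymes and 5 and 5 in the TGF-beta list. Over all tested genes 12.9% were higher and 13.0% lower.

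**Figure D4:**
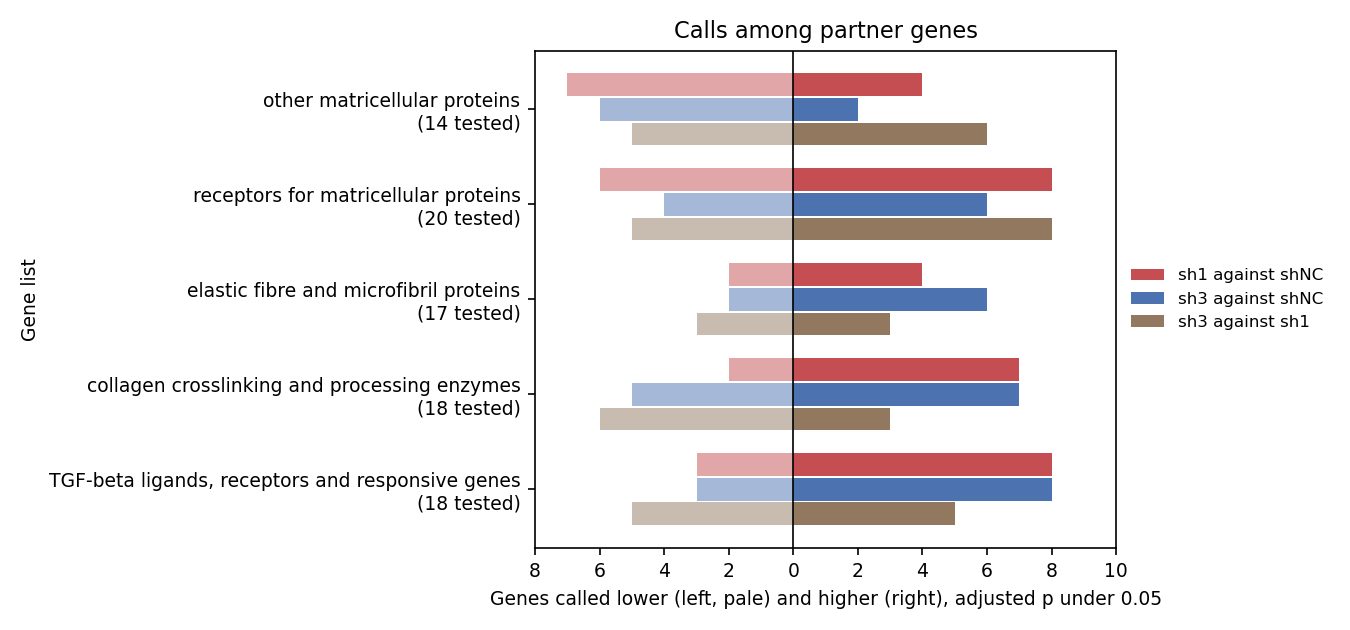
Number of genes (x axis) of each of 5 lists (y axis) called lower (pale bars, left of 0) and higher (dark bars, right of 0) by edgeR at an adjusted p under 0.05, for sh1 against shNC, sh3 against shNC and sh3 against sh1. The list of other matricellular proteins has more lower than higher calls against shNC (7 and 4 in sh1, 6 and 2 in sh3), and the TGF-beta list more higher than lower (8 and 3 in both).

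Many of the genes described here are also made by stromal cells, so marker lists were read beside them. Summed FPKM of 13 fibroblast and pericyte markers was 60.7 to 66.0 in shNC, 45.4 to 47.0 in sh1 and 48.7 to 49.7 in sh3. Most of it was MFAP5, which also belongs to the microfibril proteins above, so this sum is not separate from the matrix genes. Of the 13 markers 5 had a mean of at least 1 FPKM. COL1A1 had 5.26 FPKM in shNC, 8.77 in sh1 and 7.00 in sh3, and LUM had 9.59, 6.75 and 3.38. The sum over 7 mesothelial markers was 15.7 to 22.6, 9.66 to 10.2 and 12.6 to 13.8 FPKM, with MSLN at 11.4, 3.79 and 6.20. The sum over 8 endothelial markers was 24.6 to 26.3, 4.88 to 5.57 and 20.8 to 22.8 FPKM, nearly all PLVAP, while EMCN had no count in the sh1 and sh3 libraries. The sum over 6 leukocyte markers was 13.8 to 15.0, 10.5 to 11.3 and 17.6 to 18.7 FPKM, nearly all CD68. The 10 markers of ovarian carcinoma epithelium summed to 1123 to 1229, 720 to 749 and 1145 to 1189 FPKM, with ERBB2 at 910, 500 and 853. The first 4 of these sums did not overlap between any of the groups, and the epithelial sum in sh1 lay below those in shNC and sh3, which overlapped. Of 13 fibroblast and pericyte markers, 5 were called higher and 5 lower in sh1, and 3 and 5 in sh3. Of 6 mesothelial markers tested 1 was higher and 2 lower in both. Of 6 endothelial markers tested 0 were higher and 4 lower in sh1, and 2 and 2 in sh3. Of 10 epithelial markers 1 was higher and 6 lower in sh1, and 3 and 2 in sh3. Over all tested genes 19.9% were higher and 18.8% lower in sh1, and 14.4% and 12.4% in sh3. The part of the marker sums in the levels of the matrix genes was not tested. In libraries of whole cultures, fewer cells of one kind and less RNA per cell cannot be told apart.

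The gene table's own annotations placed all 10 genes under the term collagen-containing extracellular matrix, which 1.30% of the tested genes carry, and 6 under basement membrane and 6 under calcium ion binding. Of the 10 genes 4 lie on chromosome 5, where LOX and FBN2 are 6.18 Mb apart with 49 genes of the table between them, FBN2 and TGFBI 7.37 Mb with 107, and TGFBI and SPARC 15.6 Mb with 335. THBS1 and FBN1 share chromosome 15 at 8.81 Mb. The libraries of a group were close for these genes. The coefficient of variation of CPM over 3 libraries ran from 0.794% for TNC in sh1 to 22.6% for THBS2 in sh3, with a median of 4.80% over 30 values, and THBS1 in shNC stood at 18.0%.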

How the data were processed

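RNA of 9 SKOV3 libraries was sequenced, per the labels, from strand-marked (dUTP) poly(A) libraries. The submitters' processing notes list HISAT2 2.2.1 and StringTie 2.1.6 beside cutadapt 1.9, edgeR and DESeq2, and the build GRCh38. No source used here states the strand setting of the counts. The authors deposited 1 gene table with read counts per gene and library and FPKM values, which scale counts by gene length and depth. The 10 genes and all lists were chosen with earlier results of these data known.

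Counts were fitted here with edgeR 4.0.16 in R 4.3.3 (filterByExpr, TMM factors, glmQLFit and glmQLFTest) on all 9 libraries with 1 mean per group, and p-values were Benjamini-Hochberg adjusted over 21296 genes, two-sided, called at an adjusted p under 0.05. A gene's SE is its log2 change divided by the root of F. CPM are counts scaled to the usual common library size after TMM. At these depths 3 counts equal 0.0433 to 0.0520 CPM, and precision is limited by counting for POSTN and THBS2. FPKM served for levels between genes and for limma 3.58.1 on log2(FPKM + 1) or log2(FPKM + 0.1), and DESeq2 1.42.0 was a further alternative.

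All 10 genes are named. From each list the 3 genes with the highest mean FPKM over the 9 libraries are named in the text where they bear on these genes, and other list genes were chosen after their values were seen. Nearest genes are the 5 for TNC, and the 3 for each other gene with an absolute log2 change of at least 1 against shNC, with the smallest root mean square difference, leaving out pseudogenes, clone names and genes whose group means all lay below 1 FPKM. One gene that these rules name is not reported here. Alternatives were DESeq2, no filter, library totals, the replicate number as a block, fits of 2 groups only, limma and leaving out each library.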

Additional observations from a re-analysis of the deposited data

Results flagged for a closer look

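The sh3 and sh1 libraries differed from each other in all 10 genes. The genes were listed with both changes against shNC known, and this difference follows from those changes, so it is a description and not independent evidence. On the log2 scale the sh3 level minus the sh1 level was -1.34 for TNC, -1.45 for THBS1, -1.11 for THBS2, -0.63 for SPARC, -0.48 for LOXL2, -0.21 for FBN1 and -0.18 for TGFBI. It was 1.83 for POSTN, 0.78 for LOX and 0.77 for FBN2. All 10 were called by edgeR at an adjusted p under 0.05, as were 25.9% of all tested genes, and nothing is read from that count.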

How the results depend on the processing

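Each log2 change of the 10 genes in 3 comparisons was recomputed under 16 alternatives, giving 480 values, of which 468 kept their direction and side of the threshold, 8 lost the call, 1 gained it and 3 changed sign. The changes of sign were all LOXL2 in sh3 against shNC, -0.0167 with library totals and -0.011 to 0.032 when single libraries were left out. The number of the 10 genes called was 9 in sh1 under every alternative. In sh3 it was 6 to 8, at 6 without shNC replicate 1 or 2 or sh3 replicate 2 or 3, where THBS1 lost its call, and 8 without shNC replicate 3, where SPARC gained one. In sh3 against sh1 it was 10, and 8 with limma on FPKM at either pseudocount. The share of all genes called ran from 20.3% to 40.3% in sh1 and from 13.5% to 29.2% in sh3. In sh3 against sh1 this share ran from 12.4% to 29.4%, and each lowest share was without the filter. The 10 genes were listed with the changes known, so nothing is read from their counts. Calls over the 5 lists ranged from 50 to 57 in sh1, 42 to 55 in sh3 and 41 to 59 in sh3 against sh1. These lists held 14, 20, 17, 18 and 18 genes tested in the main fit, and nothing is read from these counts either. Same-numbered libraries did not deviate together (correlations of -0.0932 to 0.0992 over 14919 genes), so the numbers were not taken to pair them. With the replicate block the genes called were 9, 7 and 10, list calls 52, 50 and 47, and calls over all genes 7951, 5446 and 5125 in place of 8243, 5719 and 5507. Library totals in place of TMM moved the median of all genes to -0.06 in sh1 and -0.04 in sh3. POSTN and THBS2 had the fewest counts of the 10 genes, 79 to 386 and 30 to 102 per library, and the widest SE.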

Other observations

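The genes nearest to the other strongly differing members were also listed, by root mean square difference over the 9 libraries. For TGFBI they were SHISAL1 at 0.085 (log2 changes of 1.38 in sh1 and 1.22 in sh3), the ubiquitin-conjugating enzyme gene UBE2C at 0.13 (1.30 and 1.06) and the mitotic kinase gene NEK2 at 0.13 (1.19 and 1.15). For FBN2 they were PLEKHA7 at 0.090 (-1.40 and -0.65), the phospholipase gene PLCD3 at 0.13 (-1.40 and -0.44) and ZNF395 at 0.13 (-1.27 and -0.48). For THBS2, from 11619 genes, they were the kinase anchor gene AKAP12 at 0.24 (-0.08 and -1.10), PADI1 at 0.25 (-0.07 and -1.05) and MAL2 at 0.27 (-0.35 and -1.16).

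Among genes of the lists chosen after their values were seen, the SPARC relative SMOC2 had log2 changes of -2.80 ± 0.16 (SE) in sh1 and -1.04 ± 0.15 in sh3, opposite in direction to SPARC in sh1. The integrin subunit ITGB3, part of a receptor for several of these ligands, had 1.74 ± 0.081 and 0.34 ± 0.081.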
